A study of Homo sapiens with 12 samples.

Results

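The matrix metalloproteinases MMP1, MMP2, MMP7, MMP9, MMP10, MMP14 and MMP28 and their tissue inhibitors TIMP1, TIMP2 and TIMP3 were followed over 4 groups of cells. Members were found by gene symbol among the array's probe sets, and where several probe sets named a gene the one with the highest mean over the 12 arrays was used. All 10 members were measured, out of 18417 genes tested. The cells were MCF10A, a non-tumorigenic human breast epithelial line, stably carrying a full-length human HER2 chimera fused to FKBP and HA tags. The sources used here do not say whether they were a single clone. The groups, with 3 arrays each, were untreated cells and those treated for 48 hours with AP1510, with TGF-alpha or with heregulin. AP1510 is a synthetic ligand that joins FKBP tags and so forces HER2 chimeras into pairs, TGF-alpha binds EGFR, and heregulin binds HER3 and HER4. The labels list horse serum at 5% and EGF at 20 ng/ml for every group. All groups, untreated included, were without both from 24 hours before ligand. Their medium held insulin at 10 microgram/ml, hydrocortisone at 500 ng/ml and cholera toxin at 100 ng/ml. When the untreated dishes were harvested, and at which doses ligands were given, is not stated in the sources used here, so time in culture and treatment cannot be told apart in contrasts against untreated.

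Matrix metalloproteinases are zinc enzymes that cut collagens, laminins, fibronectin and other proteins outside the cell, and they are made as inactive precursors. MMP14 sits in the cell membrane and, with TIMP2 as an adaptor, activates the precursor of the gelatinase MMP2. TIMPs bind the active site of the enzymes, and TIMP3 stays attached to the matrix and also blocks ADAM17, which sheds EGFR ligands. In mammary epithelium this system takes part in branching and in remodelling of the basement membrane.

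Upstream sequences are shown for the members with the widest changes (MMP7 and TIMP3) and for MMP10. MMP10 lies in the same run of metalloproteinase genes on chromosome 11 as MMP7, with other genes between them. It had no called change with all arrays in the fit. Its signal lay below the array median on all 12 arrays, so whether it measured transcript or background was not tested. RefSeq windows of 300 bases (GRCh38.p14), from 250 bases before to 50 after the annotated start, were matched for 5 of the 10 members. The 250 bases before the start are printed 5′ to 3′ along the gene's strand, with matches to the AP-1 motif TGANTCA in capitals. MMP7 lies on the minus strand at chr11:102530748-102530997, MMP10 on the minus strand at chr11:102780629-102780878 and TIMP3 on the plus strand at chr22:32801455-32801704.
MMP7: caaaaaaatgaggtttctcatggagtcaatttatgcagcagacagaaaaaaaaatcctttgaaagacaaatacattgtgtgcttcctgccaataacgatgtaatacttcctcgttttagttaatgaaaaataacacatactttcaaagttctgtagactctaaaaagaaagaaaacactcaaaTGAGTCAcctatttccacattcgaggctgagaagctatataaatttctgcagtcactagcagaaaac
MMP10: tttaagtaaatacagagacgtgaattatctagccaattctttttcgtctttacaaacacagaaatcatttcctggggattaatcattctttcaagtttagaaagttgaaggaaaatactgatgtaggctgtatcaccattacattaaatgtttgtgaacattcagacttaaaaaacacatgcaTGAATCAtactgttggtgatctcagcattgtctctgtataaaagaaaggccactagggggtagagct
TIMP3: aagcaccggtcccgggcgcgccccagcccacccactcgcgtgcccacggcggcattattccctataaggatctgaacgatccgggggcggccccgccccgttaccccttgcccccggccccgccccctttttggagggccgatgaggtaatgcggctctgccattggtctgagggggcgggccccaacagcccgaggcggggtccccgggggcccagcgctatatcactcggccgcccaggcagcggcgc
Both MMP7 and MMP10 held 1 match, and in both it ran from base -67 to base -61 before the start. The windows of TIMP3, TIMP1 and MMP14 held 0 matches to these letters. The motif leaves its middle base open. AP-1 sites spelled otherwise were not searched, and binding was not tested at any match. Searched on both strands, the motif occurred in 7.71% of 35116 windows of the same length. The ETS core GGAA occurred in 95.5% of windows and so separates few genes; it was matched 3 times in the MMP7 window, 2 times in that of MMP10 and 1 time in that of TIMP3, and no match overlapped an AP-1 match. G and C made up 72.7% of the TIMP3 window against 35.7% of the MMP7 window.

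Over all probe sets, correlations within a group were 0.988 to 0.994. The labels give no batch. ERBB2, the gene of the transfected receptor, had a log2 change against untreated of -0.04 with AP1510, 0.55 with TGF-alpha and 0.01 with heregulin. By limma's moderated test only that with TGF-alpha passed (1.46-fold higher, adjusted p = 8.2e-05, against 0.94 with AP1510 and 0.95 with heregulin). Whether its probe set reads the chimera, the cells' own gene or both was not tested. AP1510 replicate 1 stood apart from the other AP1510 arrays on the first principal component, at -2.43 against -11.95 and -13.98, and heregulin replicate 2 from the other heregulin arrays on the second, at -30.06 against -19.97 and -17.83. None of 5 general and luminal epithelial and 4 measured basal markers lay below the array median on all 12 arrays. The summed linear intensity of the basal markers was 4392 to 5144 in untreated cells, 5610 to 6907 with AP1510, 9589 to 9939 with TGF-alpha and 6809 to 7052 with heregulin. That of the general and luminal epithelial markers was 7917 to 8290, 8346 to 8609, 11792 to 12799 and 7525 to 7860 in the same order. Genes with high levels weigh most in such sums. Over the 12 arrays KRT5 had log2 levels of 11.36 to 12.63, KRT14 of 7.29 to 8.02, ITGA6 of 9.24 to 10.75 and ITGB4 of 9.69 to 10.70. KRT8 ran from 11.36 to 12.17, KRT18 from 11.08 to 12.36, EPCAM from 7.66 to 10.30, CDH1 from 10.68 to 11.19 and KRT19 from 6.02 to 6.80. Which genes carried the differences in these 2 sums was not tested. Of 8 fibroblast markers COL3A1, LUM, PDGFRA and THY1 lay below the median on every array, as did PTPRC, CD3E, LYZ and ITGAM of 6 measured leukocyte markers and VWF of 4 endothelial markers. The fibroblast markers summed to 672 to 747 with heregulin, 380 to 418 in untreated cells, 387 to 432 with AP1510 and 322 to 339 with TGF-alpha. DCN carried most of this, since without it the sums were 246 to 269 in untreated cells and 250 to 319 with heregulin. The leukocyte markers summed to 333 to 366 with TGF-alpha against 565 to 610 in untreated cells, 522 to 606 with AP1510 and 536 to 604 with heregulin. CD68 and ITGB2 carried that sum, which without them was 56.0 to 61.7 over all groups. The endothelial markers summed to 475 to 489, 494 to 517, 521 to 537 and 406 to 448 in untreated, AP1510, TGF-alpha and heregulin arrays, with PECAM1 at log2 means of 8.54 in untreated cells and 8.21 with heregulin where KDR was at 5.30 and 6.26. The part of these lists in the results below was not tested. In such bulk samples fewer cells that express a gene and less RNA per cell cannot be told apart.

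Levels are given as log2 intensities, so that a difference of 1 is a 2-fold change, and a change is called at an adjusted p under 0.05 in limma's moderated test. The adjustment is made within each contrast, so changes of the same size can pass in some contrasts and miss in others. Members are described by counts beside the share of all genes called in the same contrast. Members and lists were chosen with earlier results of these data known, so a count above that share is no independent evidence about them. With AP1510 against untreated, 1 of 10 members rose and 1 fell, where 1.47% of all genes were called, 0.771% higher and 0.700% lower. At an unadjusted p under 0.05 in the same test, 1 member was higher and 3 were lower. With TGF-alpha, 6 members fell and 0 rose, where 26.0% of all genes were called, 13.4% lower and 12.5% higher, and 0 members were higher at an unadjusted p under 0.05. With heregulin, 2 members rose and 2 fell, where 8.50% of genes were called, 3.45% higher and 5.06% lower. Here 3 members were higher and 2 lower at an unadjusted p under 0.05. The number called higher was 0 with AP1510 when AP1510 replicate 1 or 2 or untreated replicate 2 or 3 was left out. It was 0 with heregulin without untreated replicate 1 or 3 or heregulin replicate 1, or with only these 2 groups in the fit. The median log2 change of the 10 members was -0.05 with AP1510, -0.33 with TGF-alpha and 0.03 with heregulin, against -0.01, -0.01 and 0.01 over all genes. The F test found 7 of 10 members to differ among the 4 groups, where 28.5% of all genes did. Its adjusted p ran from 1.4e-09 for MMP7 and 2.0e-07 for TIMP3 to 7.2e-04 for MMP28. MMP1, MMP9 and MMP10 did not pass it, at 0.97, 0.96 and 0.28.

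**Figure D1:**
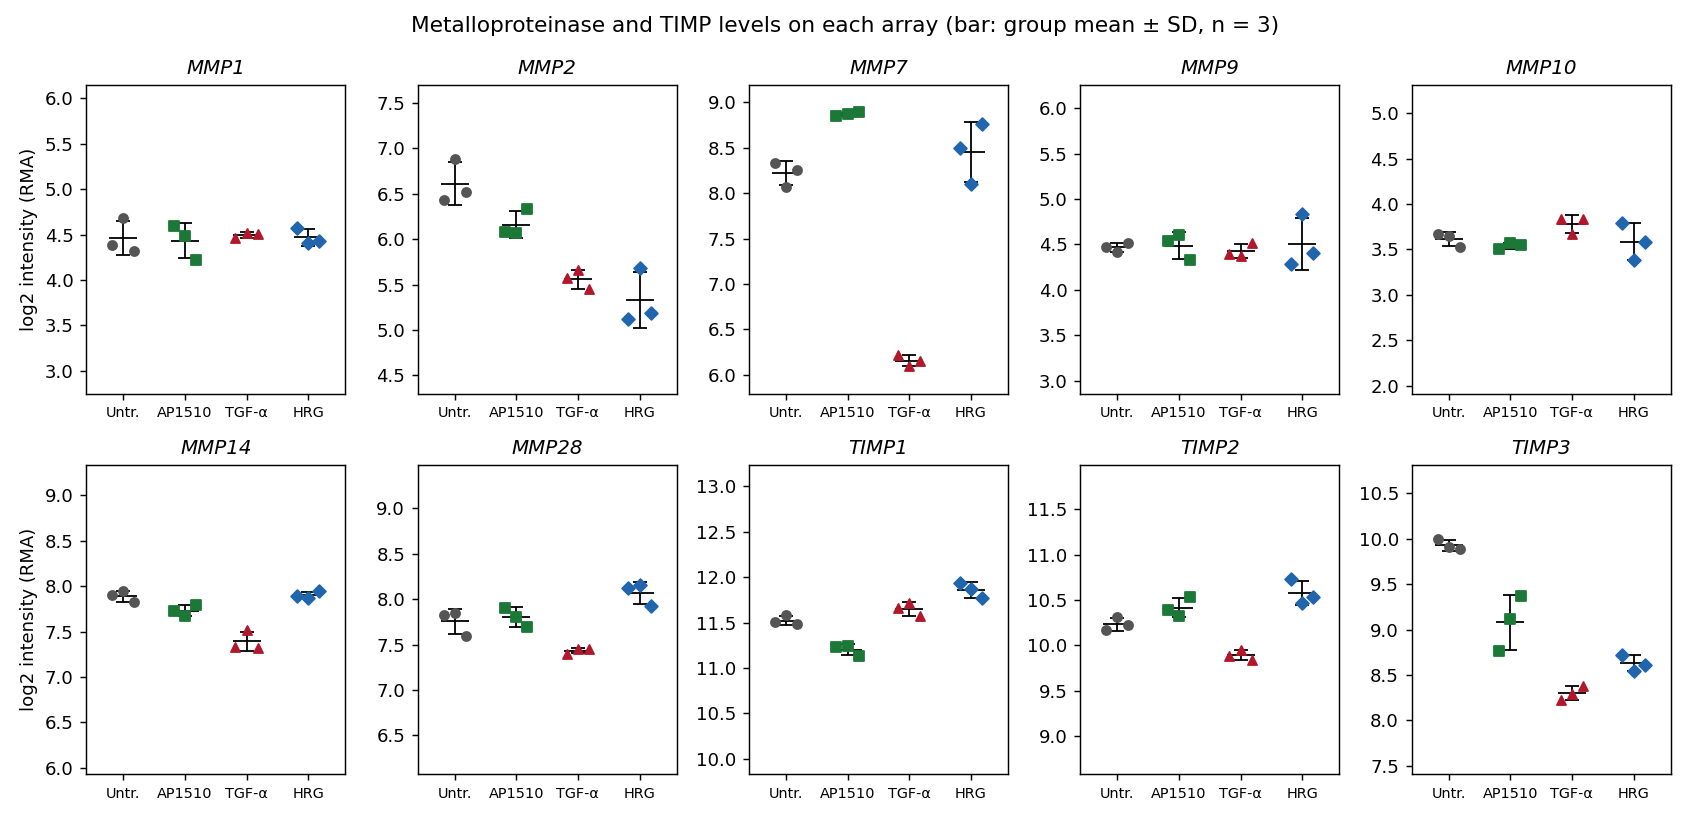
Log2 intensity of each member on each of the 12 arrays (points) by treatment group (Untr., untreated; TGF-α, TGF-alpha; HRG, heregulin), with the group mean and SD (bars, n = 3); each panel has its own vertical range. MMP7 is low only in TGF-alpha cells among the groups plotted, TIMP3 is highest in untreated cells, and MMP1, MMP9 and MMP10 overlap across the groups, except that the TGF-alpha arrays of MMP10 lie above its AP1510 arrays.

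MMP7, or matrilysin (probe set 7951217, chromosome 11), is a small secreted protease of glandular epithelium that lacks the hemopexin domain of most of the family. It had the widest range of any member. Its log2 level was 8.33, 8.07 and 8.26 on the untreated arrays, 8.85, 8.87 and 8.89 with AP1510, 6.21, 6.10 and 6.16 with TGF-alpha and 8.49, 8.10 and 8.77 with heregulin. The TGF-alpha arrays lay below all others and the AP1510 arrays above all others, while heregulin and untreated arrays overlapped. MMP7 thus fell 4.18-fold with TGF-alpha (log2 change -2.06 ± 0.13, SE, n = 3 per group, adjusted p = 1e-08) and rose 1.57-fold with AP1510 (0.65 ± 0.13, adjusted p = 0.017). The SE of each log2 change is that of the moderated fit, which pools the spread of all 4 groups. The SD of MMP7 within groups was 0.13 in untreated cells, 0.02 with AP1510, 0.06 with TGF-alpha and 0.33 with heregulin. With heregulin the log2 change was 0.23 ± 0.13 (adjusted p = 0.33, 95% interval -0.04 to 0.51). The rise with AP1510 missed the threshold when AP1510 replicate 1 (adjusted p = 0.071) or 2 (0.053) or untreated replicate 2 (0.086) or 3 (0.062) was left out, and the heregulin change passed it without heregulin replicate 2 (log2 change 0.41, adjusted p = 0.025). Between treatments MMP7 was 6.56-fold lower with TGF-alpha than with AP1510 (adjusted p = 1.1e-09) and 4.92-fold higher with heregulin than with TGF-alpha (adjusted p = 3.2e-09). Heregulin against AP1510 gave a log2 difference of -0.42 ± 0.13 (adjusted p = 0.065), which passed without heregulin replicate 3 (-0.57, adjusted p = 0.0085).

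MMP2 (probe set 7995681, chromosome 16), a gelatinase of type IV collagen, was called lower under both natural ligands. Its log2 level was 6.43, 6.88 and 6.52 in untreated cells, 6.08, 6.06 and 6.33 with AP1510, 5.57, 5.66 and 5.45 with TGF-alpha and 5.12, 5.68 and 5.18 with heregulin. The 3 treated groups all lay below the untreated arrays, and the TGF-alpha and heregulin arrays overlapped each other. MMP2 fell 2.43-fold with heregulin (log2 change -1.28 ± 0.14, adjusted p = 2.3e-05) and 2.07-fold with TGF-alpha (-1.05 ± 0.14, adjusted p = 3.6e-05). It lay below the array median on 2 of 12 arrays, heregulin replicates 1 and 3. There it was not shown to be above background, so the heregulin fold may understate a change. With AP1510 its log2 change was -0.45 ± 0.14 (95% interval -0.76 to -0.14). This was not called (adjusted p = 0.18), although the unadjusted p of the moderated test was 0.0068. It was 1.52-fold lower with TGF-alpha (adjusted p = 0.0061) and 1.78-fold lower with heregulin (adjusted p = 0.0017) than with AP1510. Heregulin and TGF-alpha differed by -0.23 ± 0.14 (adjusted p = 0.32, 95% interval -0.54 to 0.08), which passed without heregulin replicate 2 (-0.41, adjusted p = 0.036).

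MMP14 (probe set 7973336, chromosome 14), the membrane-anchored activator of MMP2, was lowest with TGF-alpha. On the log2 scale it measured 7.90, 7.94 and 7.82 in untreated cells, 7.73, 7.67 and 7.79 with AP1510, 7.33, 7.52 and 7.32 with TGF-alpha and 7.89, 7.87 and 7.94 with heregulin. The TGF-alpha arrays lay below all others, and the heregulin arrays fell within the untreated range except for replicate 3, which was level with its top. MMP14 fell 1.41-fold with TGF-alpha (log2 change -0.50 ± 0.08, adjusted p = 2.5e-04). The log2 changes of 0.01 ± 0.08 with heregulin (95% interval -0.16 to 0.19) and -0.16 ± 0.08 with AP1510 (adjusted p = 0.52) did not pass. It was 1.42-fold higher with heregulin than with TGF-alpha (adjusted p = 2.5e-04), and 1.26-fold lower with TGF-alpha than with AP1510 (adjusted p = 0.0071).

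MMP28, or epilysin (probe set 8014282, chromosome 17), is a secreted protease of keratinocytes and other epithelia. Its log2 intensity was 7.82, 7.85 and 7.60 in untreated cells, 7.91, 7.81 and 7.69 with AP1510, 7.40, 7.46 and 7.45 with TGF-alpha and 8.13, 8.15 and 7.93 with heregulin. All heregulin arrays lay above, and all TGF-alpha arrays below, the 6 arrays of the other groups, which overlapped. It fell 1.25-fold with TGF-alpha (log2 change -0.32 ± 0.10, adjusted p = 0.020) and had a log2 change of 0.31 ± 0.10 with heregulin (adjusted p = 0.058). The fall was not called without untreated replicate 1 (adjusted p = 0.079) or 2 (0.084) or TGF-alpha replicate 1 (0.065), and the heregulin change was called without heregulin replicate 3 (adjusted p = 0.037). Set directly against each other, heregulin gave 1.55-fold more than TGF-alpha (adjusted p = 1.2e-04), and TGF-alpha gave 1.29-fold less than AP1510 (adjusted p = 0.010).

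The interstitial collagenase MMP1 (probe set 7951271, chromosome 11), the gelatinase MMP9 (8063115, chromosome 20) and the stromelysin MMP10 (7951259, chromosome 11) had low signals. All 12 values of each lay below the median of their array, which was 5.33 to 5.44. MMP1 ran from 4.22 to 4.68, MMP9 from 4.28 to 4.83 and MMP10 from 3.38 to 3.84 on the log2 scale. None of their contrasts passed with all arrays in the fit. Their group means spanned 0.06 for MMP1, 0.08 for MMP9 and 0.24 for MMP10, for which TGF-alpha against AP1510 was highest at 0.24 ± 0.10 (adjusted p = 0.11). Leaving out heregulin replicate 1, MMP10 was called lower with heregulin than with TGF-alpha (log2 difference -0.30, adjusted p = 0.044, against -0.20 and 0.21 with all arrays). The table gives no detection call, so whether these probe sets measured transcript or background was not tested, and a change of a transcript near background is understated.

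**Figure D2:**
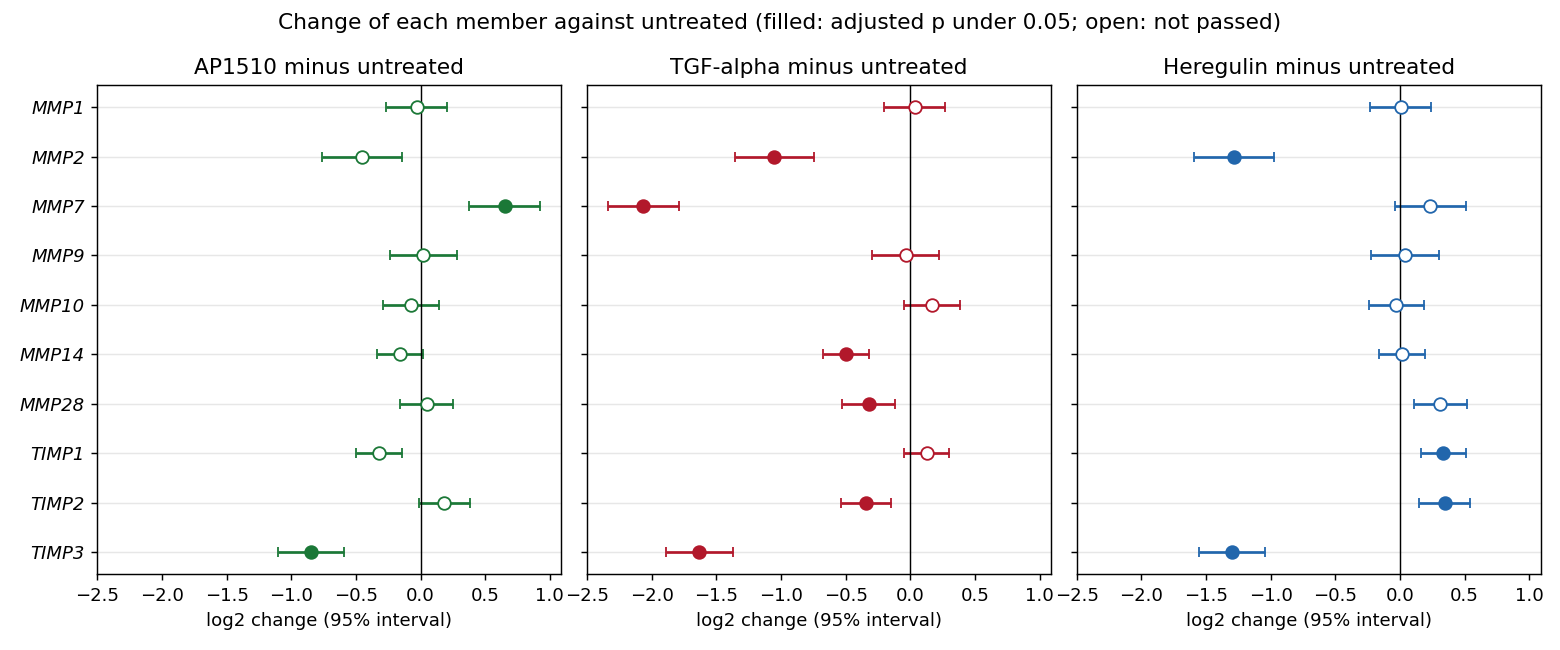
Log2 change of each member against untreated cells with AP1510, TGF-alpha and heregulin (points) and its 95% interval from the fit (bars); filled points passed an adjusted p of 0.05. TIMP3 is filled and below 0 in all 3 panels, MMP2 in the TGF-alpha and heregulin panels, and MMP7 is filled above 0 with AP1510 and below 0 with TGF-alpha.

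TIMP1 (probe set 8167185, chromosome X), a secreted inhibitor that also binds the precursor of MMP9, had its own order of groups. Its log2 level was 11.51, 11.58 and 11.48 in untreated cells, 11.23, 11.25 and 11.13 with AP1510, 11.66, 11.72 and 11.57 with TGF-alpha and 11.94, 11.87 and 11.77 with heregulin. The AP1510 arrays lay below and the heregulin arrays above all others, while untreated and TGF-alpha arrays overlapped. TIMP1 rose 1.26-fold with heregulin (log2 change 0.34 ± 0.08, adjusted p = 0.018). Its log2 change was 0.13 ± 0.08 with TGF-alpha (adjusted p = 0.32) and -0.32 ± 0.08 with AP1510 (adjusted p = 0.074). The 95% interval of the latter was -0.50 to -0.14, and its unadjusted p in the moderated test was 0.0014. It was 1.58-fold higher with heregulin (adjusted p = 9.8e-05) and 1.36-fold higher with TGF-alpha (adjusted p = 7.8e-04) than with AP1510. The rise with heregulin missed the threshold without untreated replicate 1 (adjusted p = 0.065) or 3 (0.074) or heregulin replicate 1 (0.065), and with only the 2 groups in the fit (0.060). The AP1510 change passed with a mean-variance trend (adjusted p = 0.0057) and when quantile normalization was repeated (0.048).

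TIMP2 (probe set 8018966, chromosome 17), the inhibitor that also couples MMP14 to MMP2, went opposite ways under the natural ligands. Its log2 intensity was 10.17, 10.31 and 10.22 in untreated cells, 10.39, 10.33 and 10.53 with AP1510, 9.88, 9.95 and 9.84 with TGF-alpha and 10.73, 10.47 and 10.53 with heregulin. TGF-alpha arrays lay below and heregulin arrays above the untreated ones, and AP1510 and heregulin arrays overlapped. TIMP2 fell 1.27-fold with TGF-alpha (log2 change -0.34 ± 0.09, adjusted p = 0.010) and rose 1.27-fold with heregulin (0.35 ± 0.09, adjusted p = 0.026). The direct contrast of heregulin with TGF-alpha was 1.61-fold (0.69 ± 0.09, adjusted p = 3.5e-05), and TGF-alpha was 1.44-fold below AP1510 (adjusted p = 4.6e-04). The rise with heregulin was lost without untreated replicate 1 (adjusted p = 0.11) or 3 (0.084), without heregulin replicate 1 (0.10) or 3 (0.051), and with only the 2 groups in the fit (0.077). With AP1510 the log2 change was 0.18 ± 0.09 (adjusted p = 0.48).

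TIMP3 (probe set 8072626, chromosome 22), the matrix-bound inhibitor, was called lower under all 3 treatments. On the log2 scale it measured 9.99, 9.91 and 9.88 in untreated cells, 8.76, 9.12 and 9.37 with AP1510, 8.23, 8.29 and 8.38 with TGF-alpha and 8.72, 8.55 and 8.61 with heregulin. No 2 groups overlapped, although AP1510 replicate 1 lay close above the highest heregulin array. It fell 3.10-fold under TGF-alpha (log2 change -1.63 ± 0.12, adjusted p = 4.9e-08), 2.46-fold with heregulin (-1.30 ± 0.12, adjusted p = 3.2e-06) and 1.80-fold with AP1510 (-0.85 ± 0.12, adjusted p = 0.0022). These 3 contrasts share the untreated arrays. Between treatments, TGF-alpha was 1.72-fold below AP1510 (adjusted p = 1.5e-04) and heregulin 1.37-fold below AP1510 (adjusted p = 0.031). That last call was lost without AP1510 replicate 2 (adjusted p = 0.10) or 3 (0.15), without heregulin replicate 2 (0.10) or 3 (0.076), and with only the 2 groups in the fit (0.12). Heregulin and TGF-alpha differed by 0.33 ± 0.12 (adjusted p = 0.064), which passed without AP1510 replicate 1 (0.017) or 3 (0.028).

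A second probe set (8075635) is annotated to TIMP3 through 1 sequence record. Its strand is not given, TIMP3 lies within the gene SYN3, and which transcript it reads was not tested. It had group means of 8.24 ± 0.20 (SD, n = 3) in untreated cells, 7.48 ± 0.43 with AP1510, 6.72 ± 0.32 with TGF-alpha and 6.62 ± 0.29 with heregulin. Fitted over the 19460 probe sets with 1 gene, it was 2.87-fold lower with TGF-alpha (adjusted p = 2.7e-05) and 3.09-fold lower with heregulin (adjusted p = 6.5e-05) than in untreated cells. With AP1510 its log2 change was -0.76 ± 0.20 and did not pass (adjusted p = 0.085). The order of TGF-alpha and heregulin was turned between the probe sets, neither difference being called.

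**Figure D3:**
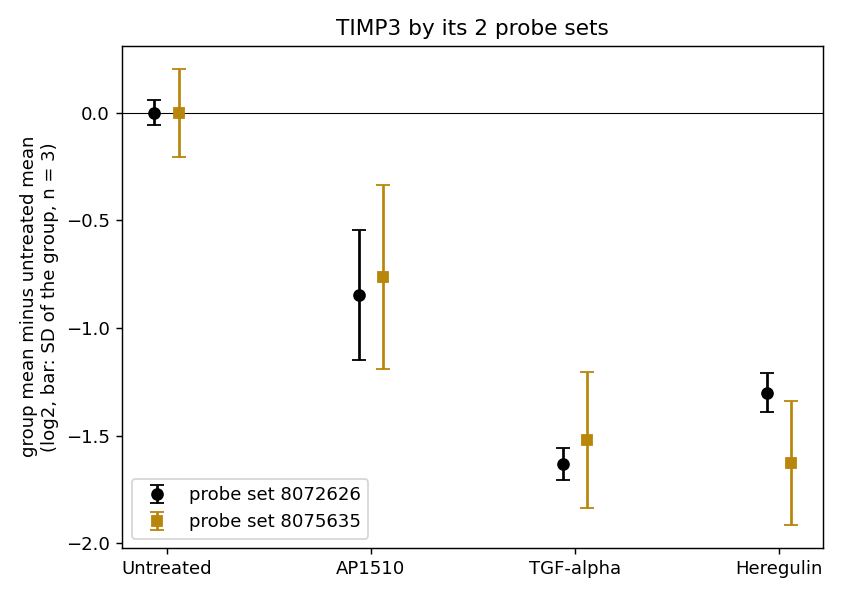
Group mean of TIMP3 minus the untreated mean on the log2 scale by its 2 probe sets (circles, 8072626, used in the report; squares, 8075635, whose target transcript was not tested), with the SD of each group's 3 arrays as bars. Both probe sets lie below 0 under each treatment, with means of -0.85 and -0.76 with AP1510.

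The contrasts between treatments share no untreated arrays. TGF-alpha against AP1510 called 6 members lower (MMP2, MMP7, MMP14, MMP28, TIMP2 and TIMP3) and 1 higher (TIMP1), where 21.6% of all genes were called, 10.4% lower and 11.2% higher. Heregulin against TGF-alpha called 4 members higher (MMP7, MMP14, MMP28 and TIMP2) and 0 lower, where 21.6% of genes were called, 9.88% higher and 11.8% lower, and 0 members were lower at an unadjusted p under 0.05. Heregulin against AP1510 called TIMP1 higher and MMP2 and TIMP3 lower, where 7.23% of genes were called, 3.27% higher and 3.95% lower. At an unadjusted p under 0.05, 2 members were higher and 3 lower there. At the same limit TGF-alpha against AP1510 had 2 higher and 6 lower, and heregulin against TGF-alpha had 6 higher. These contrasts share treated arrays with each other.

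MMP1, MMP7 and MMP10 belong to a run of 9 metalloproteinase genes on chromosome 11, in the RefSeq order MMP7, MMP20, MMP27, MMP8, MMP10, MMP1, MMP3, MMP12 and MMP13. Only MMP7 and MMP13, at its ends, had a called change against untreated. MMP13, a collagenase, had log2 levels of 5.50 ± 0.33 (SD, n = 3) in untreated cells, 5.45 ± 0.48 with AP1510, 3.88 ± 0.54 with TGF-alpha and 4.25 ± 0.22 with heregulin. Under TGF-alpha it fell 3.07-fold (adjusted p = 1.2e-04), and under heregulin 2.38-fold (0.0045). MMP13 lay below the array median on 9 of 12 arrays and was not shown to be above background there, so these folds may understate a change. With AP1510 its log2 change was -0.05 ± 0.25, where MMP7 rose. The other 7 genes lay below the array median on all 12 arrays.

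**Figure D4:**
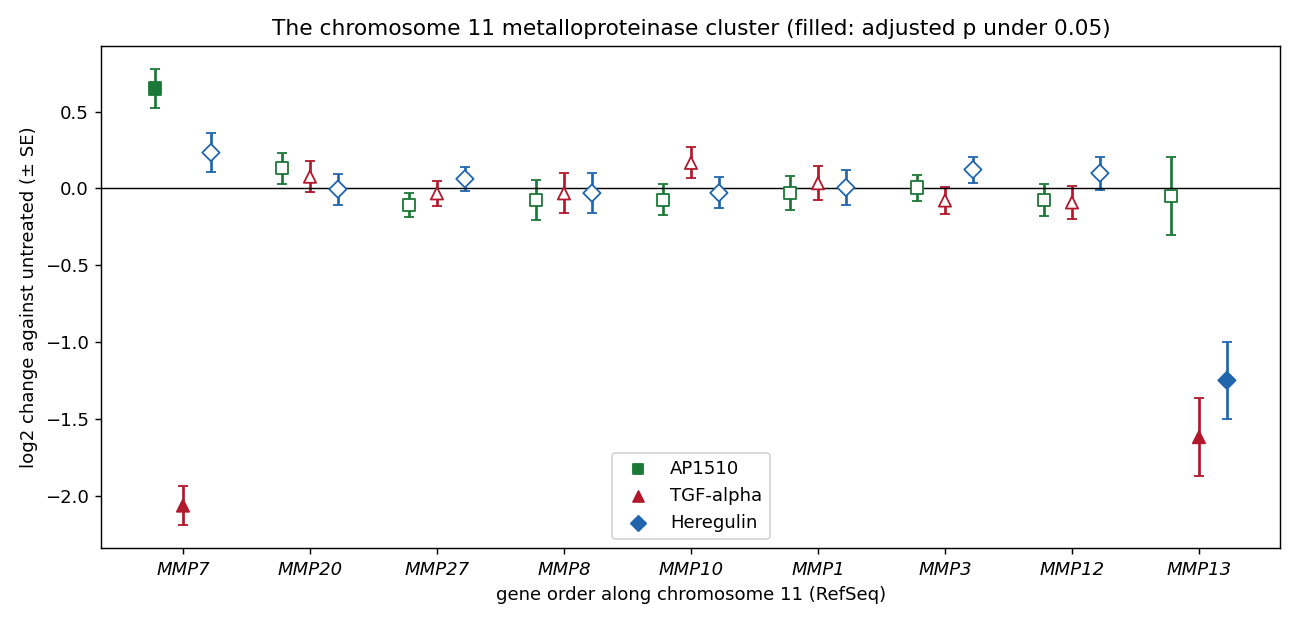
Log2 change against untreated cells (± SE) with AP1510 (squares), TGF-alpha (triangles) and heregulin (diamonds) for the 9 metalloproteinase genes of chromosome 11 in genomic order, not to scale; filled symbols passed an adjusted p of 0.05. The filled symbols belong to MMP7 and MMP13, and the 7 genes between them lie between -0.11 and 0.17.

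Further MMP genes, TIMP4 and the membrane inhibitor RECK formed a list of 17 measured genes. Of these, 0 were called with AP1510, where limma gave 0 higher and 1 lower at an unadjusted p under 0.05. TGF-alpha called 2 lower, MMP13 and the membrane-type protease MMP15 (1.36-fold, adjusted p = 0.0056), and heregulin called MMP13 lower. Without untreated replicate 2, 1 of them was called higher with heregulin. Over all genes 1.47% were called with AP1510, 26.0% with TGF-alpha and 8.50% with heregulin, shares that apply to the next list as well. The list's median log2 change was -0.0026 with AP1510, 0.02 with TGF-alpha and 0.06 with heregulin, against -0.01, -0.01 and 0.01 over all genes, the values that also stand beside the lists that follow. Among 25 ADAM and ADAMTS proteases, ADAM10, a membrane sheddase, fell 1.37-fold under TGF-alpha (adjusted p = 0.0029), and ADAMTS9, which cuts proteoglycans, rose 1.27-fold with heregulin (adjusted p = 0.020). ADAMTS9 missed the threshold in 4 of 12 refits with 1 array less, those without untreated replicate 2 or 3 or heregulin replicate 1 or 3 (up to adjusted p = 0.071). It lay below the array median on 4 of 12 arrays and was not shown to be above background there. With AP1510 0 of the 25 were called, and limma gave 1 higher and 1 lower at an unadjusted p under 0.05. Their median log2 change was 0.02 with AP1510, 0.0037 with TGF-alpha and 0.08 with heregulin.

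The list of proteins that activate or modulate the enzymes had 22 measured genes. Under TGF-alpha 4 rose and 11 fell, and under heregulin 1 rose and 6 fell. Under AP1510 0 rose and 2 fell (2 higher and 6 lower at an unadjusted p under 0.05). Over all genes 12.5% rose and 13.4% fell with TGF-alpha, 3.45% and 5.06% with heregulin, and 0.771% and 0.700% with AP1510. PLAU, the urokinase that makes plasmin, an activator of several MMP precursors, was lower by 3.33-fold under TGF-alpha (adjusted p = 2.9e-06), by 3.19-fold under heregulin (2.3e-05) and by 1.79-fold under AP1510 (0.037). SERPINE2, an inhibitor of urokinase and thrombin, rose 2.39-fold under TGF-alpha (adjusted p = 2.5e-05) but fell 2.39-fold under heregulin (1.2e-04) and 1.87-fold under AP1510 (0.011). It lay below the array median on 3 of 12 arrays and had a log2 mean of 5.22 with heregulin, so its falls may be understated. LCN2, which binds and protects MMP9, rose 2.47-fold under heregulin (adjusted p = 2.6e-07) and fell 1.35-fold under TGF-alpha (0.0023). The protease inhibitor SPINT1 fell 1.93-fold under TGF-alpha (adjusted p = 1.1e-06), as did the tight junction gene CLDN1, by 3.84-fold (8.9e-09). The matricellular gene THBS1 fell 2.23-fold under heregulin (adjusted p = 2.3e-05) and rose 1.47-fold under TGF-alpha (0.0040). The list's median log2 change was -0.09 with AP1510, -0.24 with TGF-alpha and -0.20 with heregulin. In the AP1510 contrast SERPINE2 was lost in 3 of 12 refits with 1 array less, those without untreated replicate 1 or 3 or AP1510 replicate 1 (adjusted p up to 0.070). PLAU was lost in these and in those without untreated replicate 2, AP1510 replicate 2 or any TGF-alpha array, 8 in all (up to 0.14), so that 0 or 1 of the list fell there.

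Among 25 measured matrix proteins that these enzymes can cut, 8 fell and 4 rose with TGF-alpha. Heregulin and AP1510 each had 1 higher and 1 lower. Over all genes 13.4% fell and 12.5% rose with TGF-alpha. The shares higher and lower were 3.45% and 5.06% with heregulin and 0.771% and 0.700% with AP1510. Under TGF-alpha FN1, fibronectin, fell 2.29-fold (adjusted p = 3.5e-07) and TNC, tenascin C, 2.85-fold (adjusted p = 3.3e-05), while COL4A2, a chain of type IV collagen, rose 1.80-fold (adjusted p = 1.1e-05). DCN, decorin, which is also on the fibroblast list, rose 3.01-fold under heregulin (adjusted p = 9.1e-07) and fell 1.74-fold under TGF-alpha (1.8e-04). LAMB1, a laminin chain, fell 1.56-fold under heregulin (adjusted p = 1.7e-04) and 1.24-fold under TGF-alpha (0.014), the latter call being lost when TGF-alpha replicate 1 or 3 or untreated replicate 2 was left out (up to 0.060). With AP1510, TNC fell 1.99-fold (adjusted p = 0.024) and COL4A2 rose 1.37-fold (0.039). The call of TNC was lost in 5 of 12 refits, those without any 1 untreated array or AP1510 replicate 1 or 2 (up to adjusted p = 0.10). That of COL4A2 was lost in these 5 and without heregulin replicate 3, AP1510 replicate 3 or either of TGF-alpha replicates 1 and 2, 9 in all (up to 0.18). With heregulin 2 rose without AP1510 replicate 1 or 3 or heregulin replicate 2. The list's median log2 change was 0.01 with AP1510, -0.01 with TGF-alpha and 0.07 with heregulin.

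Of 21 transcription factors known to act on metalloproteinase promoters, the TGF-alpha contrast had 5 higher and 11 lower. That of heregulin had 5 higher and 7 lower, and that of AP1510 0 higher and 4 lower (0 higher and 7 lower at an unadjusted p under 0.05). The shares of all genes higher and lower were 12.5% and 13.4% with TGF-alpha, 3.45% and 5.06% with heregulin, and 0.771% and 0.700% with AP1510. Several were subunits of AP-1, whose motif was searched above. FOSB was lower by 7.70-fold under TGF-alpha (adjusted p = 1e-10), by 2.01-fold under heregulin (2.2e-05) and by 1.65-fold under AP1510 (0.0041). JUN likewise fell 3.26-fold under TGF-alpha (adjusted p = 2.7e-07), 2.41-fold under heregulin (3.3e-05) and 1.71-fold under AP1510 (0.015). FOS fell 1.95-fold (adjusted p = 1.7e-06), 1.41-fold (0.0043) and 1.69-fold (0.0011) in the same order, and JUNB 2.70-fold (6.5e-08), 1.56-fold (0.0011) and 1.39-fold (0.038). FOSL2 rose 1.59-fold under heregulin (adjusted p = 1.6e-04) and was not called under TGF-alpha (0.15) or AP1510 (0.26). FOSL1 and JUND, also AP-1 subunits on the list, were outside the genes named by the rule, and their changes are not given here. The ETS factors ETV1, ETV5 and ETV4 rose 8.64-fold, 6.57-fold and 3.72-fold under TGF-alpha, from untreated log2 means of 3.32, 5.20 and 4.45. Each lay below the array median on 9 of the 12 arrays, so the size of these folds rests on a low baseline that was not shown to be above background. ETV5 was also called lower under heregulin (1.55-fold, adjusted p = 0.0011). ETS2 rose 1.66-fold under heregulin (adjusted p = 1.9e-04) and 1.27-fold under TGF-alpha (0.020), the latter call being lost when TGF-alpha replicate 1 or 2 or untreated replicate 1 was left out (up to 0.13). The list's median log2 change was -0.13 with AP1510, -0.35 with TGF-alpha and -0.13 with heregulin. In the AP1510 contrast JUN was lost in 3 of 12 refits, those without untreated replicate 1 or 2 or AP1510 replicate 1 (up to adjusted p = 0.083), where 2 factors fell. JUNB was lost in these and without untreated replicate 3, heregulin replicate 3 or any TGF-alpha array, 8 in all (up to 0.15). With heregulin 3 rose without untreated replicate 1.

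For the members whose group means spanned at least 1 log2 unit, the genes with the most similar profile were those with the smallest root mean square difference over the 12 arrays after each gene was centred on its own mean. For TIMP3, with a span of 1.63, these were LRIG1 (0.11 log2 units), an inhibitor of ErbB receptors, LAMA4 (0.14) and JUN (0.16). LRIG1 had group means of 7.59 in untreated cells, 6.84 with AP1510, 6.16 with TGF-alpha and 6.46 with heregulin. For MMP7, with a span of 2.71, they were SELENOP (0.27), CCDC80 (0.28) and MME (0.29), the last of which encodes the metalloprotease neprilysin. With AP1510 against untreated their log2 changes were 0.19, 0.29 and -0.08 in this order, none of them called, where that of MMP7 was 0.65. For MMP2, with a span of 1.28, the most similar genes were PDE5A (0.22), PLEKHG1 (0.23) and CRABP2 (0.24). PDE5A lay below the array median on 8 of the 12 arrays, PLEKHG1 on 5, SELENOP on 3, LAMA4 on 2 and CRABP2 on 1. There they were not shown to be above background.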

How the data were processed

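Per the labels, dishes were seeded in triplicate and biotin-labelled RNA was hybridised to 12 Affymetrix arrays, so p-values reflect dish-to-dish spread. The authors deposited log2 intensity values computed with RMA, per the submitters' processing notes, which give no version. RMA equalises arrays, so changes are relative to the bulk of genes. The table held 33297 probe sets; 19460 named 1 gene, 1754 several and 12083 none, and symbols were updated through Entrez IDs to RefSeq names (19429 matched). Each gene was the probe set with the highest mean, giving 18417 genes. Array number limits the precision. A linear model over the 12 arrays, with 1 mean for each group, was fitted in limma 3.58.1 (R 4.3.3), with 8 residual and 7.55 prior degrees of freedom. All 6 contrasts were tested two-sided, with Benjamini-Hochberg adjustment over all genes, and a moderated F test was added. The procedure was tested on simulated data. Members and lists were chosen with earlier results of these data known. All members are named; from each list, up to 4 called genes per contrast against untreated with the largest change; likeness covers 3 genes. Alternatives were renewed quantile normalization, median centring, leaving out genes below the 25th percentile, fits of 2 groups, a trended robust prior, array weights, the mean of a gene's probe sets and leaving out each array. The second TIMP3 probe set was added after seeing the data. Protein sequences were not used here.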

Additional observations from a re-analysis of the deposited data

How the results depend on the processing

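Of the 26 member changes called in the 6 contrasts, 21 kept their call and direction under every alternative setting except the second TIMP3 probe set, and 5 lost it in some; 0 changed sign. With that probe set, chosen after seeing the data, the change of TIMP3 with AP1510 against untreated (-0.76, adjusted p = 0.085) was not called either. Of the 34 changes not called, 8 were called in some alternative, and in 32 of their 640 refits the sign turned without a call. Those calls gained outside the refits given above were MMP7 (0.45, adjusted p = 0.0047) with heregulin against untreated and MMP2 (-0.36, 0.014) with heregulin against TGF-alpha under array weights; MMP28 with heregulin against untreated without dim genes (0.045) or with a trend (0.036); MMP7 with heregulin against AP1510 (0.043 and 0.033) and TIMP1 with heregulin against TGF-alpha (0.024 and 0.014) after quantile normalization or with a trend; and TIMP3 with heregulin against TGF-alpha after quantile normalization (0.033), in the fit of 2 groups (0.030), with a trend (0.029) or with array weights (0.014). The number of members called with heregulin against untreated was 2 in the fit of these groups alone, which has fewer arrays. Leaving out each of the 12 arrays in turn, the number called ran from 1 to 2 with AP1510, 5 to 6 with TGF-alpha and 2 to 5 with heregulin against untreated, was 7 throughout for TGF-alpha against AP1510, and ran from 2 to 3 for heregulin against AP1510 and 4 to 5 for heregulin against TGF-alpha; 7 members differed by the F test throughout. MMP10 was left out by the filter on dim genes. Array weights gave heregulin replicate 3 a weight of 4.62 and heregulin replicate 2 one of 0.322. No paired analysis was possible because the labels give no replicate numbers that groups share.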

Other observations

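SYN3, a synapsin gene whose RefSeq span contains TIMP3, was looked at after the values of TIMP3 were seen. Its log2 level was 6.13, 6.2 and 6.0 in untreated cells, 6.48, 6.45 and 6.46 with AP1510, 7.68, 7.75 and 7.66 with TGF-alpha and 7.32, 7.22 and 7.15 with heregulin. No 2 groups overlapped, and the order of the groups was that of TIMP3 turned round. SYN3 was 3.0-fold higher with TGF-alpha (log2 change 1.59 ± 0.08, adjusted p = 1.9e-09), 2.17-fold higher with heregulin (1.12 ± 0.08, adjusted p = 3.3e-07) and 1.28-fold higher with AP1510 (0.35 ± 0.08, adjusted p = 0.045) than in untreated cells. The AP1510 call was lost in 10 of 12 leave-one-out refits, with the highest adjusted p, 0.20, when untreated replicate 3 was left out. Whether the 2 genes' levels are linked was not tested. SYN1, whose span contains TIMP1, had log2 changes of -0.03 with AP1510, 0.06 with TGF-alpha and 0.22 with heregulin, and SYN2, whose span contains TIMP4, of 0.06, 0.20 and 0.15; none of these was called.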
